A study of Homo sapiens with 14 samples.

Results

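Adenosine sites that read as guanosine were compared between HEK293T cells carrying the RNA base editor labelled DECOR with a MALAT1 guide and HEK293T cells carrying dCas13d-ADAR with the guide labelled NT. HEK293T is a human embryonic kidney line that takes up DNA easily. The members are every position in the site lists of these 4 libraries, keyed by chromosome and position with no threshold: 17677 of the 26172 distinct positions in the 14 libraries of the series. The series holds 7 groups of 2 libraries of polyadenylated RNA, each from cells given a programmable RNA editor. The 2 dCas13d-ADAR libraries with an EZH2 guide were used here as a further reference for the same editor with another guide. NT and DECOR are not written out in the sample labels, and no group lacks an editor. Nothing says that replicate libraries came from cultures grown apart, so a p-value covers only library-to-library spread, which could be technical.

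The 2 groups differ in 3 things at once. The DECOR libraries have another editor, another guide and longer reads (62 and 160 cycles, against 25 and 97), and the parts of editor, guide and read length in any difference cannot be told apart. The lists hold no read counts and no strand, although the library kit kept the strand, so depth is unknown. Absence from a list does not separate an adenosine without editing from one with few reads or a low rate.

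Both kinds of editor convert adenosine to inosine, which the ribosome and reverse transcriptase read as guanosine. ADAR enzymes, the source of the deaminase in dCas13d-ADAR, act on double-stranded RNA in animal cells, and dCas13d is a form of the RNA-guided protein Cas13d that binds RNA without cutting it. The series title speaks of an adenosine deaminase evolved from a bacterial one, an enzyme family that edits transfer RNA in its natural host. EZH2, the gene of the other dCas13d-ADAR guide, encodes a histone methyltransferase. MALAT1, the gene after which the DECOR guide is named, gives a long noncoding RNA that stays in the nucleus and is abundant in many cell lines. Deaminases that are tethered to a guide and made in excess are known to edit adenosines away from the guide's target, and lists of such sites across the transcriptome describe this activity.

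The lists were about equally long, and the levels in the DECOR lists were lower. DECOR listed 5516 and 5855 sites and dCas13d-ADAR with NT listed 5730 and 5795, a ratio of geometric means of 0.986, with overlapping libraries. The level of a site is its A-to-G rate, a fraction from 0 to 1. The median level was 0.211 and 0.208 in the DECOR lists, a mean of 0.209 ± 0.00155 (SD, n = 2), and 0.267 and 0.269 in the NT lists, a mean of 0.268 ± 0.00181 (n = 2). Both DECOR medians lay below both NT medians, by 0.0585 on average, while the 2 EZH2 libraries of dCas13d-ADAR (0.267 and 0.263) differed from NT by -0.00304 on average.

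The shift ran through the whole range of listed levels. The lowest listed level was 0.0611 on average in DECOR and 0.0777 in NT. Depth is unknown, and its part in this shift was not tested. Sites below a level of 0.2 made up 43.8% ± 0.654 of the DECOR lists and 24.1% ± 1.06 of the NT lists (SD, n = 2 each). Sites at 0.5 or above made up 1.70% and 1.67% of the DECOR lists, which is 94 and 98 sites. They made up 6.89% and 7.77% of the NT lists, which is 395 and 450 sites. The upper decile of the DECOR lists was 0.348 and 0.347, against 0.455 in both NT lists, and the lower decile 0.129 and 0.128 against 0.150 and 0.154. With 2 libraries against 2, the smallest p that a two-sided exact permutation test can give is 0.333. That p was reached for the median level and for the share at 0.5 or above (adjusted p = 0.417 by Benjamini-Hochberg over 5 such values), while the number of sites gave an exact permutation p of 1. Split at a level of 0.2, the site numbers stood apart in opposite directions. Below 0.2 DECOR listed 2389 and 2590 sites and NT 1426 and 1355, a ratio of 1.79. At 0.2 or above DECOR listed 3127 and 3265 sites and NT 4304 and 4440, a ratio of 0.731 (exact permutation p = 0.333 for each).

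**Figure D1:**
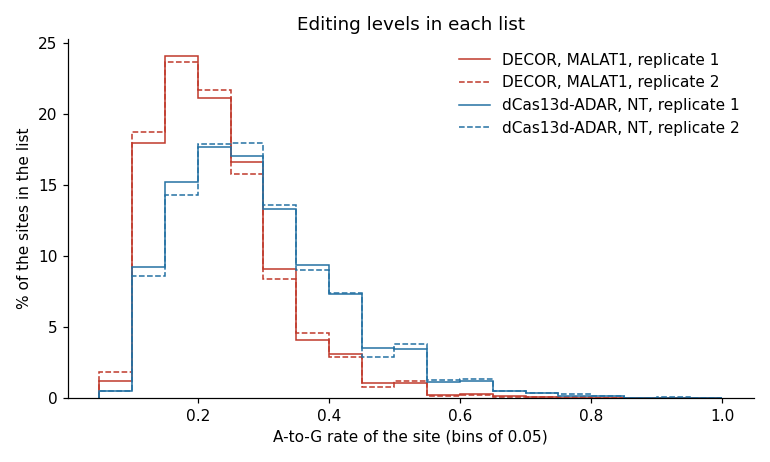
Share of the sites in each list (y axis, %) by A-to-G rate (x axis, bins of 0.05), with 1 line per library: red for DECOR with the MALAT1 guide, blue for dCas13d-ADAR with NT, solid for replicate 1 and dashed for replicate 2. Replicates of a group nearly coincide, and the red lines are higher below 0.2 and lower from 0.3 upward.

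Although the lists were of like length, few positions were common to both editors. DECOR and NT libraries shared 97 to 118 positions over the 4 pairs, or 1.67% to 2.14% of the shorter list. The 2 DECOR libraries shared 2067 positions (37.5% of the shorter list) and the 2 NT libraries 2929 (51.1%). NT and EZH2 libraries of dCas13d-ADAR shared 49.6% to 50.9% over 4 pairs, about as much as the 2 NT libraries shared with each other. DECOR was as far from the EZH2 libraries as from NT, at 1.83% to 2.18% over 4 pairs.

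Taken over both libraries of a group, 9304 positions were in a DECOR list and 8596 in an NT list, and 223 were in a list of each, which is 2.40% of the DECOR positions and 2.59% of the NT positions. Positions in both libraries of a group were shared little more often: 69 of 2067 DECOR positions (3.34%) were in an NT list, and 109 of 2929 NT positions (3.72%) were in a DECOR list. The 4 lists had 34 positions in common.

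The positions were also looked up in libraries that were not part of this comparison. Of the 2820 positions in both NT lists and no DECOR list, 2392 (84.8%) were in an EZH2 list of dCas13d-ADAR and 2191 (77.7%) in a list of Repair.t1, another editor of the series. Of the 1998 positions in both DECOR lists and no NT list, 14 (0.701%) were in an EZH2 list and 13 (0.651%) in a Repair.t1 list. These low shares are partly set by the filter, since leaving out NT positions also leaves out positions that the EZH2 and Repair.t1 lists share with NT. Of the 35 positions in both DECOR lists and 1 NT list, 22 were in an EZH2 list and 15 in a Repair.t1 list. Of the 34 in all 4 lists, 34 and 31 were. All of these reference libraries had the shorter reads of the NT libraries.

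Sites found in both libraries of a group had higher levels than sites found in 1 library for dCas13d-ADAR, and hardly so for DECOR. In each NT list the median level was 0.286 for sites also in the other NT list and 0.250 for the rest. In the DECOR lists these medians were 0.214 against 0.208 in replicate 1 and 0.208 against 0.207 in replicate 2. Across the 2067 sites of both DECOR lists the levels of the replicates correlated at r = 0.689, and across the 2929 sites of both NT lists at r = 0.691. These r are descriptions across sites, which share their library and their depth. Level differences between the replicates at a shared site had an SD of 0.0769 in DECOR and 0.103 in NT.

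Sites of the other group were also counted within set distances. These shares are cumulative, so they can only rise with distance and converge towards 100%, and no level that unrelated lists would give was computed. The share of DECOR sites with a site of an NT library at the same position was 1.92% on average over 4 pairs, 4.76% within 10 bases, 16.01% within 50 bases, 47.9% within 1000 bases and 74.04% within 10000 bases. The same shares between the 2 DECOR libraries were 36.4%, 40.1%, 46.5%, 65.8% and 82.5%. At each of these distances the share was lower for an NT library than for the other DECOR library. Seen from NT, the share of sites with a DECOR site was 1.89% at the same position, 44.9% within 1000 bases and 68.1% within 10000 bases, against 50.8%, 74.03% and 86.5% for the other NT library. The lists hold no strand, so sites on opposite strands count as near each other here. These shares were not tested, since the pairs share libraries.

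**Figure D2:**
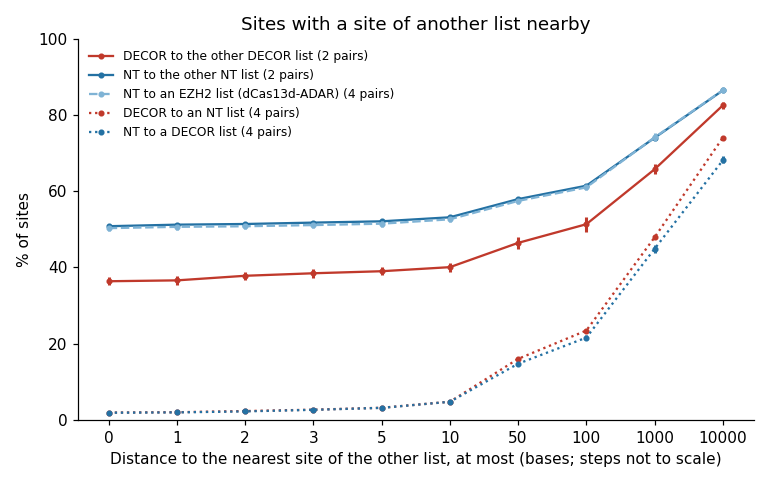
Share of sites (y axis, %) that have a site of another list within the distance on the x axis (bases, at most; steps are not to scale), as the mean over pairs of libraries with vertical bars from the lowest to the highest pair. Lines between DECOR and NT start near 2% at the same position and rise to 74.04% and 68.1% within 10000 bases, while lines between replicates start at 36.4% for DECOR and 50.8% for NT.

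Sites in both libraries of 1 group and neither of the other differed in level as the whole lists did. The 1998 such DECOR sites had a median level of 0.215 (mean over 2 libraries; 0.0837 to 0.779), and 25 of them (1.25%) reached 0.5. The 2820 such NT sites had a median of 0.292 (0.0844 to 0.843), and 215 (7.62%) reached 0.5. Of the DECOR sites 21.9% had an NT site within 50 bases and 61.7% within 1000 bases. Of the NT sites 23.05% had a DECOR site within 50 bases and 62.4% within 1000 bases.

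The most highly edited of these DECOR sites was position 10194316 on chromosome 3, at 0.769 and 0.789 in the 2 libraries, with the nearest NT site 25898 bases away. Position 30536603 on chromosome 8 was edited at 0.727 and 0.714, with an NT site 478 bases away, and position 104164830 on chromosome 14 at 0.667 and 0.643, with an NT site 341 bases away. The replicates lay close together at these 3 sites, with SDs of 0.00918 to 0.0168 (n = 2). Position 77083915 on chromosome X was edited at 0.667 and 0.611 and lay 24 bases from position 77083891, a site that all 4 libraries listed. Position 27408296 on chromosome 10 had 0.692 and 0.533, and its nearest NT site was 8446664 bases away. The others of the 10 highest were positions 14626932 and 14626829 on chromosome 19, position 36920696 on chromosome 22 and positions 75370025 and 23370922 on chromosome 14, at mean levels of 0.559 to 0.592. None of the 10 was in a list of another group of the series, which holds no other DECOR group.

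The most highly edited NT sites that DECOR did not list were listed for other groups too. For dCas13d-ADAR the series holds the EZH2 group as well, whereas DECOR has no other group. The DECOR sites were also chosen as absent from NT, so the 2 sets of 10 cannot be compared on this point. Position 36296063 on chromosome 11 was edited at 0.917 and 0.769 in the NT libraries and at 0.462 and 0.615 in the EZH2 libraries, and DECOR had a site 407 bases away. Position 27207137 on chromosome 17 had 0.682 and 0.909 with NT and 0.5 and 0.750 with EZH2. Position 195778213 on chromosome 3 had 0.800 and 0.786 with NT and 0.917 and 0.5 with EZH2. Replicates scattered widely at the chromosome 17 site, and the 2 EZH2 libraries did so at the chromosome 3 site, so the order of such high sites is loose. Position 48890109 on chromosome 8 (0.767 and 0.800) and position 377385 on chromosome 20 (0.773 and 0.769) were steadier and had DECOR sites 85 and 93 bases away. The remaining 5, on chromosomes 19, 13, 5, 8 and 15, had mean levels of 0.750 to 0.782. Each of the 10 was listed by an EZH2 library and by at least 1 Repair.t1 group, and 5 of them by a group of Repair.v2 as well.

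At the 34 positions that all 4 libraries listed, DECOR levels were mostly lower. The mean level over the 34 was 0.215 and 0.2001 in the DECOR libraries, 0.207 ± 0.0105 together (SD, n = 2), and 0.305 and 0.315 in the NT libraries, 0.310 ± 0.00686 together (n = 2). The difference of DECOR minus NT was -0.103, with no overlap between the libraries (exact permutation p = 0.333, the smallest possible, adjusted p = 0.417). DECOR was lower at 30 sites and higher at 4. At 22 sites (64.7%) both DECOR values lay below both NT values, and at 2 (5.88%) both lay above. Without NT replicate 1 or NT replicate 2 more sites qualified, 52 and 51, and the difference was -0.0623 and -0.0620. A site had to pass the listing threshold in all 4 libraries to be among the 34, so sites with a large fall may be missing from them. The difference also depended on which positions were taken. At the 35 positions in both DECOR lists and 1 NT list, the median level was 0.195 in DECOR and 0.179 in NT. At the 79 positions in 1 list of each group these medians were 0.174 and 0.185. At the 75 positions in 1 DECOR list and both NT lists they were 0.182 and 0.259. The value of -0.103 therefore holds for the 34 sites only.

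By limma on log2 odds (both the level and 1 minus the level raised by 0.01), 9 of the 34 sites (26.5%) were lower in DECOR and 0 (0%) higher at an adjusted p below 0.05, and 18 sites had an unadjusted p below 0.05. The number of calls rested on single libraries. Without DECOR replicate 1, without DECOR replicate 2 or without NT replicate 2, limma called 0 of 67, 76 and 51 sites, with 19, 23 and 11 at an unadjusted p below 0.05; without NT replicate 1 it called 9 of 52.

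The largest fall was at position 75113460 on chromosome 11, edited at 0.2 and 0.136 in DECOR and 0.660 and 0.569 in NT (log2 odds difference -2.93, SE 0.33, limma adjusted p = 0.00286). The EZH2 libraries had 0.660 and 0.619 there, close to NT. A second site on that chromosome, position 75111800, went the same way from a lower level, with 0.134 and 0.136 in DECOR against 0.210 and 0.217 in NT (limma adjusted p = 0.0497). Position 235277158 on chromosome 1 was edited at 0.211 and 0.217 in DECOR and 0.625 and 0.667 in NT (log2 odds difference -2.68, SE 0.22, limma adjusted p = 0.00176), and at 0.788 and 0.667 in the EZH2 libraries. At all 3 sites both DECOR values lay below both NT values.

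On chromosome 11, position 60668789 had 0.162 and 0.167 in DECOR against 0.378 and 0.514 in NT (limma adjusted p = 0.00996), and position 6500041 had 0.185 and 0.172 against 0.455 and 0.464 (limma adjusted p = 0.00286). Position 122931900 on the same chromosome was lower as well, at 0.137 and 0.127 against 0.250 and 0.255 (limma adjusted p = 0.0141). The groups did not overlap at any of the 3. Position 35101241 on chromosome 9 had 0.220 and 0.160 against 0.422 and 0.390 (limma adjusted p = 0.0125), position 146015798 on chromosome 8 had 0.175 and 0.176 against 0.339 and 0.386 (limma adjusted p = 0.00996), and position 39711447 on chromosome 22 had 0.107 and 0.133 against 0.214 and 0.279 (limma adjusted p = 0.0285). At the chromosome 8 site the EZH2 libraries, at 0.283 and 0.222, lay between the groups.

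Some of the highest shared sites did not differ by the test. Position 77083891 on chromosome X, the highest over the 4 libraries, had 0.611 and 0.550 in DECOR and 0.579 and 0.643 in NT. Position 121436240 on chromosome 10 had 0.629 and 0.390 in DECOR and 0.414 and 0.444 in NT, so that the spread between the DECOR libraries exceeded the difference of the means. On chromosome 12, position 57038689 had 0.203 and 0.404 in DECOR against 0.426 and 0.333 in NT. At these 3 sites the libraries of the groups overlapped. Position 142752124 on chromosome 3 (0.304 and 0.296 against 0.375 and 0.424, limma adjusted p = 0.0871) and position 3984177 on chromosome 19 (0.235 and 0.298 against 0.400 in both NT libraries, limma adjusted p = 0.0531) had no overlap and missed the threshold, and position 48069491 on chromosome 21 overlapped (0.261 and 0.316 against 0.381 and 0.267).

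The levels of the EZH2 libraries, which the choice of the 34 did not use, were also read at these sites. All 34 were in at least 1 EZH2 list and 25 were in both. At 18 of the 25 both DECOR values lay below both EZH2 values, and at 0 of them above. This count is not free of selection. The 25 had to pass the listing threshold in both EZH2 libraries, and the 34 in both NT libraries of the same editor. Sites with low dCas13d-ADAR levels may therefore be missing. Of the 34 sites, 17 were in all 4 Repair.t1 lists, 3 in none of them, and 4 in a Repair.v2 list. Across the 34 sites the group means of DECOR and NT correlated at r = 0.571, against 0.808 between the DECOR replicates and 0.873 between the NT replicates, given as descriptions across sites of the same libraries.

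**Figure D3:**
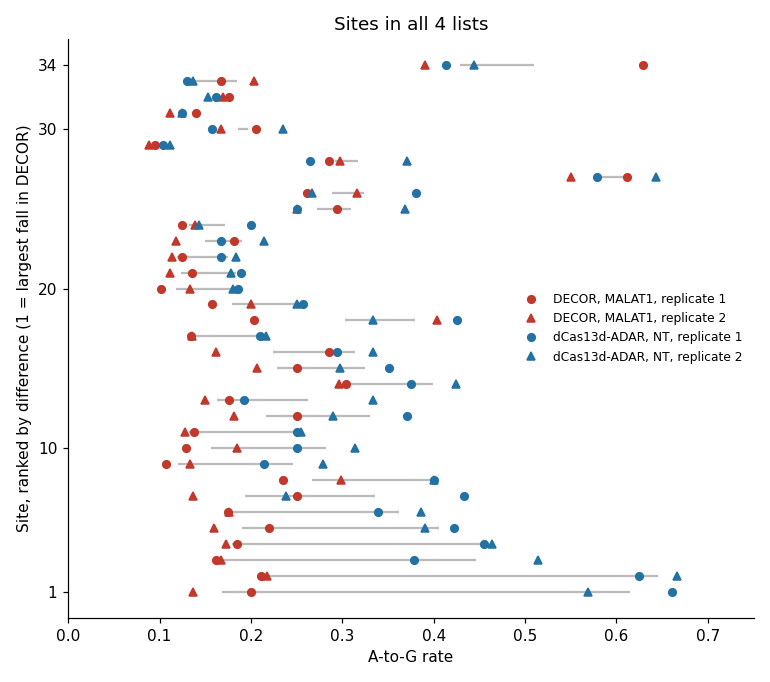
Levels (x axis, A-to-G rate) at the 34 sites in all 4 lists, ranked from the largest fall in DECOR at the bottom to the largest rise at the top (y axis, rank). Points are single libraries (red DECOR, blue dCas13d-ADAR with NT, circles replicate 1, triangles replicate 2) and grey lines join the group means, which run to the right from DECOR to NT at 30 sites.

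Edited sites also sat at different distances from each other within a list. In DECOR the most frequent short distance was 2 bases, at 147 and 175 pairs of sites, or 26.6 and 29.9 pairs per 1000 listed sites. In NT a distance of 2 bases was infrequent, at 23 and 25 pairs, or 4.01 and 4.31 per 1000, which makes the DECOR mean 6.79 times the NT mean. Adjacent positions went the other way, with 31 and 32 such pairs in DECOR (5.62 and 5.47 per 1000). NT had 62 and 57 (10.8 and 9.84 per 1000), a ratio of NT over DECOR of 1.86. Without strand in the lists, the 2 sites of a pair may lie on opposite strands. The EZH2 libraries gave 3.94 and 3.80 pairs per 1000 at 2 bases and 11.5 and 10.01 at 1 base, as NT did.

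Distances of 3 and 4 bases were also more frequent in DECOR, at 15.3 ± 1.76 against 8.60 ± 1.66 and 9.84 ± 0.580 against 4.69 ± 0.774 pairs per 1000 (SD, n = 2 each). DECOR was also above NT without overlap at 5 bases (means of 7.47 against 5.99), 9 bases (7.04 against 5.90) and 11 bases (4.74 against 2.51). At 6, 7, 8, 10 and 12 bases the libraries of the groups overlapped. Where they did not overlap the exact permutation p was 0.333, or 0.571 after Benjamini-Hochberg adjustment over the 12 distances. Of the 267 pairs 2 bases apart in a DECOR list, 55 (20.6%) were in both, against 7 of 41 (17.1%) in NT. Of the pairs 1 base apart, 11 of 52 (21.2%) were in both DECOR lists and 23 of 96 (24.0%) in both NT lists. The median gap in level between the members of a pair 2 bases apart was 0.0489 and 0.0509 in the DECOR libraries and 0.05 and 0.101 in the NT libraries. In DECOR it was 0.0261 and 0.0574 for pairs 1 base apart and 0.0507 and 0.0399 for pairs 3 bases apart, so the distance of 2 bases did not stand out in this measure.

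**Figure D4:**
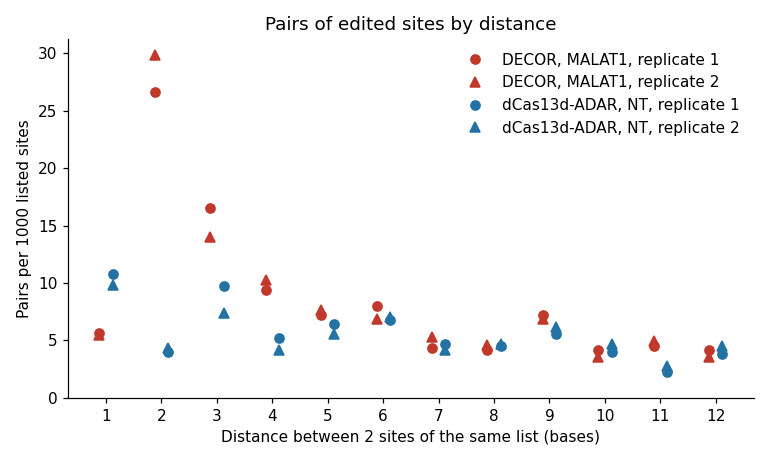
Pairs of sites of the same list per 1000 listed sites (y axis) by the distance between them (x axis, 1 to 12 bases), with 1 point per library: red DECOR, blue dCas13d-ADAR with NT, circles replicate 1, triangles replicate 2. DECOR stands at 26.6 and 29.9 at 2 bases against 4.01 and 4.31 for NT, and below NT at 1 base.

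Counted up to 50 bases, DECOR sites were somewhat more clustered, with the pairs a few bases apart included. The share of sites with another site of the same list within 50 bases was 32.6% and 32.8% in DECOR, 32.7% ± 0.176 together, and 25.5% and 25.9% in NT, 25.7% ± 0.274 together (SD, n = 2 each; exact permutation p = 0.333, the smallest possible, adjusted p = 0.417). This share is cumulative, and most of the difference was present at short distances. DECOR minus NT was 5.61 percentage points within 5 bases, 5.21 within 10 and 6.99 within 50. It was 2.84 within 1000 bases and 0.834 within 10000. Among sites at a level of at least 0.2 the difference within 50 bases fell to 0.725 percentage points, from 6.99 over all sites, and the libraries overlapped (exact permutation p = 0.667). The DECOR lists are the shorter ones at that level. The excess of pairs 2 bases apart stayed at that level, at 20.8 and 17.5 per 1000 sites in DECOR against 2.56 and 2.48 in NT. Sites with a neighbour within 50 bases had lower medians than the rest in both groups, at 0.2 and 0.190 against 0.214 in each DECOR list and 0.250 against 0.273 in each NT list.

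Runs of sites with gaps of at most 50 bases were longer in DECOR. It had 24 and 25 runs of at least 5 sites, holding 2.65% and 2.56% of its sites, against 5 and 6 runs in NT, holding 0.471% and 0.518%. Both DECOR libraries had their longest run at the same place, chr19:14626753-14626952, with 15 and 18 sites in 200 bases, where the NT libraries had 2 and 1. Levels there ranged from 0.156 to 0.636 in DECOR replicate 1 and from 0.131 to 0.574 in replicate 2, and the 2 chromosome 19 sites among the highest of DECOR lie in it. The next, chrX:153628173-153628281, had 10 and 8 sites in DECOR and 2 and 1 in NT, at median levels of 0.194 and 0.123 in DECOR. The longest NT run, chr22:39710724-39710827, had 7 and 5 sites in NT and 1 and 0 in DECOR. These 3 places were chosen after their values were seen. Their coordinates are those of hg19, and the genes there were not analysed here.

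The lists were spread differently over the chromosomes. Relative to NT, DECOR had larger shares of its sites on chromosomes 13, 18, 14, 2, 6, 12, 10 and 3 and smaller shares on chromosomes 16, 22, 19, 17 and 8, by limma on log2 sites per 1000 listed sites at an adjusted p below 0.05. That is 8 of 23 chromosomes higher (34.8%) and 5 lower (21.7%). Both DECOR shares lay above both NT shares on 10 chromosomes (43.5%) and below them on 6 (26.1%). Shares of a list sum to a fixed total, so a larger share in one place goes with smaller ones elsewhere. With each library centred on its median chromosome the split was 5 higher and 6 lower.

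Chromosome 16 held 233 and 254 DECOR sites (4.22% and 4.34% of the lists) and 375 and 371 NT sites (6.54% and 6.40%), a log2 difference of -0.60 (SE 0.09, limma adjusted p = 7.67e-08). Chromosome 19 held 10.6% and 10.3% of the DECOR lists and 13.1% and 12.7% of the NT lists (log2 difference -0.31, limma adjusted p = 0.00209). The EZH2 libraries, with 6.26% and 5.96% on chromosome 16 and 12.9% and 12.3% on chromosome 19, were near NT on both. Chromosome 13 held 0.997% and 0.956% of the DECOR lists against 0.541% and 0.569% of the NT lists (log2 difference 0.81, limma adjusted p = 5.78e-11). Chromosome 18 held 0.725% and 0.854% against 0.506% and 0.466% (log2 difference 0.69, limma adjusted p = 2.92e-09). These 2 shares rest on 40 to 56 DECOR sites and 27 to 33 NT sites per library. Counting error at such numbers was not modelled, so the SEs and p-values of these 2 chromosomes may be too small. Chromosome 2 held 5.89% and 6.06% of the DECOR lists against 4.31% and 4.25% of the NT lists (limma adjusted p = 4.58e-06), and chromosome 14 held 3.37% and 3.72% against 2.50% and 2.57% (limma adjusted p = 4.58e-06).

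The test used the same SE for every chromosome, since the fit found no variation of the spread among them. Without NT replicate 1 it called 4 chromosomes, and without NT replicate 2 it called 5. The levels did not follow the shares: on each of the 23 chromosomes both DECOR medians (0.188 to 0.250) lay below both NT medians (0.235 to 0.318).

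**Figure D5:**
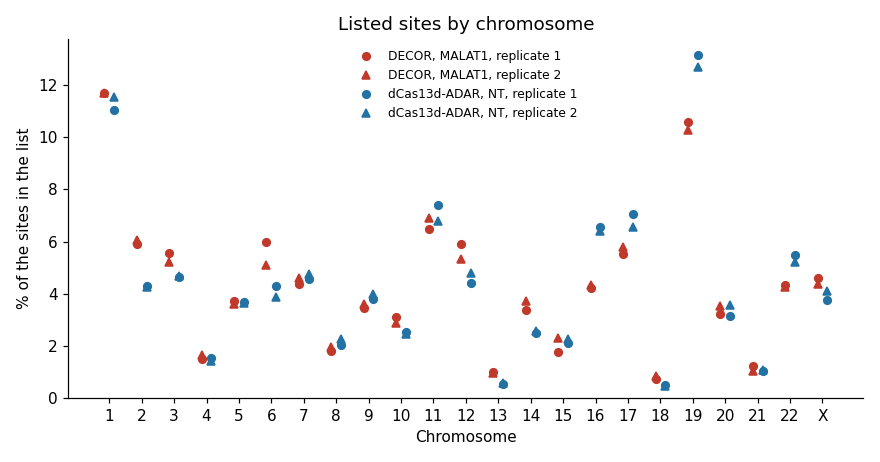
Share of each list (y axis, %) by chromosome (x axis), with 1 point per library: red DECOR, blue dCas13d-ADAR with NT, circles replicate 1, triangles replicate 2. DECOR points lie below NT on chromosomes 16, 17, 19 and 22 and above NT on chromosomes 2, 6, 12, 13, 14 and 18.

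In windows of 10 Mb the numbers of sites were more alike between replicates than between editors, at r = 0.909 for DECOR and 0.960 for NT against 0.751 to 0.798 between them (log2 numbers over 193 windows, a description across windows of the same libraries). Limma called 30 of the 193 windows higher in DECOR (15.5%) and 8 lower (4.15%), around a median log2 difference of 0.17. Both DECOR shares lay above both NT shares in 85 windows (44%) and below them in 59 (30.6%). With each library centred on its median window the split of calls was 24 higher and 45 lower, and with a minimum mean of 20 sites it was 4 higher and 12 lower of 85 windows. Without DECOR replicate 1 limma called 0 of 187 windows (71 at an unadjusted p below 0.05), and without DECOR replicate 2 it called 3 of 189.

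The largest differences upward were in windows with few NT sites. The counting error of such small numbers was not modelled, so the SEs and p-values of these windows may be too small. The window on chromosome 2 from 60000001 to 70000000 held 37 and 41 sites in DECOR and 7 and 3 in NT (log2 difference 2.96, SE 0.41, limma adjusted p = 0.0207). The window on chromosome 13 from 30000001 to 40000000 held 31 and 30 against 4 and 4 (log2 difference 2.80, SE 0.16, limma adjusted p = 0.00650). In the EZH2 libraries these windows held 8 and 5 and 3 and 8 sites, far from the DECOR numbers. The other 8 of the 10 largest rises, on chromosomes 2, 5, 8, 11, 12 and X, held 8 to 30 DECOR sites and 1 to 9 NT sites. Among the falls, the first window of chromosome 16, up to 10000000, was the fullest, with 51 and 53 sites in DECOR against 127 and 125 in NT (log2 difference -1.25, SE 0.16, limma adjusted p = 0.0207). The window on chromosome 17 from 20000001 to 30000000 held 10 and 12 against 36 and 28 (log2 difference -1.47, SE 0.21, limma adjusted p = 0.0207), and the other 6 falls, on chromosomes 2, 7, 9, 11, 13 and 17, held 3 to 21 DECOR sites and 7 to 36 NT sites.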

How the data were processed

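For each library the authors deposited a list of sites, whose columns are a region, a position and a fraction, the A-to-G rate, per the file headers. The submitters' processing notes name cutadapt, STAR 2.6.1b, hg19 and GRCh37; for the site caller and its thresholds, tool and values were not given in the sources used here. Lists were used whole. Two-sided exact permutation tests were used for single values per library. Levels at sites in all 4 lists were tested on log2 odds (0.01 added). Sites per chromosome or 10 Mb window were tested as log2 of sites plus 0.5 per 1000 listed sites (features with a mean of at least 5). Both used limma 3.58.1 with R 4.3.3 and Benjamini-Hochberg adjustment. The fits were also run on simulated data with normal noise of equal spread for all features, which leaves out the counting error of small numbers. Named sites and windows are the 10 largest called changes each way without overlap, the 10 highest sites per group that both its libraries and neither of the other listed, and the 10 highest shared sites. The members, tests and lists were chosen with earlier results of these data known. Genes, guide targets and flanking bases were not analysed here, for want of a reference of the same build. Alternatives were minimum levels, other added constants, filters and scalings, libraries left out, the EZH2 libraries and a replicate block. Python 3.11.15, numpy 2.4.6, pandas 2.3.3, scipy 1.17.1 and matplotlib 3.10.9 were used.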

Additional observations from a re-analysis of the deposited data

How the results depend on the processing

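The differences in median level, in the share of sites at 0.5 or above, in neighbours within 50 bases, in pairs 2 bases apart and in mean level at shared sites kept their direction in every alternative run; no exact test of them could reach 0.05. With 1 library left out they ranged from -0.0598 to -0.0572, from -6.08 to -5.20 points, from 6.80 to 7.19 points, from 22.5 to 25.7 pairs per 1000 and from -0.108 to -0.0620; the difference in pairs 1 base apart ranged from -5.28 to -4.29 and was -2.53 with sites that both replicates listed. The ratio of site numbers ranged from 0.957 to 1.02 with 1 library left out and was 0.706 with such sites. The overlap of 1.93% was 1.29% at a minimum level of 0.2, 4.78% within 10 bases, 15.5% within 50 bases and 0.960% as a Jaccard index, and 1.77% to 2.09% with 1 library left out.

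Calls at shared sites numbered 4 of 144 with sites missing from at most 1 library, and 0 to 9 with 1 library left out. Calls of chromosomes numbered 11 when centred on the median chromosome, where the split turned, and 4 to 16 with 1 library left out. Calls of windows, 38 in all, numbered 13 with no minimum number of sites, 89 against both dCas13d-ADAR groups, 73 with a trend of the spread (chosen after seeing the data), and 0 to 30 with 1 library left out. They numbered 16 with a minimum of 20 sites (4 higher, 12 lower) and 69 when centred, where the split turned. The causes were not tested.

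The deviations of samples with the same replicate number were nearly uncorrelated (r = -0.0443 over shared sites and -0.0448 over windows). This cannot show whether such samples were handled together, which the sample labels do not say. With the number as a replicate block, limma called 10 shared sites, 14 chromosomes and 0 windows (79 at an unadjusted p below 0.05); the single values were the same, -0.0585 for the median level, with an exact sign-flip p of 0.5, the smallest possible.

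Of the sites named, 4 turned direction without 1 library: with 1 library left out, log2 odds differences ranged from -0.369 to 0.0111 at position 77083891 on chromosome X, from -0.23 to 1.15 at position 121436240 on chromosome 10, from -1.22 to 0.15 at position 57038689 on chromosome 12 and from -0.59 to 0.15 at position 48069491 on chromosome 21. The turned values came without NT replicate 2, DECOR replicate 1, DECOR replicate 1 and NT replicate 1. None of the 4 was called. Restricting chromosomes and windows to sites that both replicates listed was not run, since both libraries then hold the same list. Sequence context was not run. Alternatives for pairs 1 and 2 bases apart, and those without chromosome 19, were chosen after seeing the data. Depth per site is unknown and limits which sites are listed.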

Other observations

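One list held a mitochondrial site: DECOR replicate 2 listed position 13710 of the mitochondrial genome at a level of 0.0968, and DECOR replicate 1 and both NT libraries listed 0 sites there.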
